A study of Mus musculus with 9 samples.

Results

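The genes described here encode 6 membrane-bound proteases of the ADAM family (*Adam8*, *Adam9*, *Adam10*, *Adam15*, *Adam17*, and *Adam19*) and 2 tissue inhibitors of metalloproteases (*Timp1* and *Timp2*). They were chosen by name and are 8 of the 19937 genes measured. Each gene was read from the probe set that the platform annotation gives to it and to no other gene, and each of the 8 genes had 1 such probe set. Values are log2 of the intensities on 9 Affymetrix whole-transcript arrays, 3 for each of 3 populations of Ly6Chi CD115+ cells sorted from the steady-state bone marrow of C57Bl/6 mice at 8 weeks of age. R3 cells were Flt3+CD11c+ and are called pre-DCs, R2 cells were Flt3+CD11c-, and R1 cells were Flt3-CD11c-. R2 and R1 cells are called monocytes. All mice were untreated, and each array was made from 1 ng of RNA amplified before labeling. Each population has 1 array under each of 3 dates named in the labels, and replicate numbers 1 to 3 stand for these dates. Separate mice are not stated for the arrays. The p-values therefore measure only how far these arrays spread, and part of that spread may be technical.

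ADAM proteases cut receptors, ligands, and adhesion molecules close to the outer face of the membrane and release their ectodomains, a process called shedding. Shedding frees cytokines such as TNF from the cell that made them, removes receptors from the surface, and starts the cleavage of Notch that ends inside the membrane. ADAM proteins are made with an inhibitory prodomain that is removed on the way to the surface, and carrier proteins bring individual ADAMs there. TIMPs are secreted proteins that block the active site of matrix metalloproteases and of some ADAMs. In monocytes and their descendants, shedding is known for its part in TNF release and in the turnover of surface receptors.

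Markers of the gates set R3 apart, and *Flt3* did not separate R2 from R1 on the arrays. *Flt3* read 10.99, 11.09, and 11.03 in R3, 7.70, 8.02, and 8.01 in R2, and 6.74, 7.78, and 7.17 in R1, so that R2 and R1 overlapped (log2 difference 0.68, adjusted p = 0.281). The summed intensity of 6 dendritic precursor markers, *Flt3* and *Itgax* (CD11c) among them, lay between 6650 and 7920 in R3 pre-DCs, against 682 to 834 in R2 monocytes and 399 to 571 in R1 monocytes. Of these 6 genes, *Clec9a* alone was called in R2 against R1, higher by 1.87 on the log2 scale (limma adjusted p = 0.0132). Monocyte markers summed to 12600 to 15300 over 6 genes in R3, 25400 to 27500 in R2, and 28000 to 29400 in R1. Their order is that of *Adam9*, *Adam10*, *Adam15*, and *Timp2* below, and its part in those differences was not tested. In these sorted pools, fewer cells of a type and less RNA per cell cannot be told apart. Stromal markers, of cells known to make TIMPs, summed over 6 genes to 286 to 301 in R3, 289 to 314 in R2, and 299 to 312 in R1. Megakaryocyte and platelet markers spread more, with 187 to 227 over 4 genes in R3, 217 to 1930 in R2, and 322 to 673 in R1. Of these, *Pf4* and *Ppbp* varied most, with SDs in R2 of 2.58 and 2.13. The means in R3, R2, and R1 were 6, 6.16, and 6 for *Itga2b* and 5.82, 6.18, and 5.91 for *Gp9*. None of the 4 genes was called in any comparison. Erythroid markers summed over 3 genes to 1080 to 1210 in R3, 261 to 296 in R2, and 177 to 194 in R1, with *Tfrc*, the transferrin receptor, called higher in R3. The other 2 erythroid genes were not called, with means in R3, R2, and R1 of 4.65, 4.61, and 4.68 for *Klf1* and 6.07, 6.1, and 5.96 for *Epor*. NK cell markers summed over 5 genes to 115 to 161 in R3, 322 to 513 in R2, and 234 to 383 in R1, with *Nkg7* called lower in R3. The other 4 NK cell genes (*Ncr1*, *Klrb1c*, *Eomes*, and *Gzma*) were not called in any comparison. Their population means lay between 3.16 and 4.41, so the NK cell sums differ through *Nkg7*. The part of these lists in the differences below was not tested.

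No ADAM or TIMP gene was called higher in R3 pre-DCs, and 4 were called lower than in R1 monocytes: *Adam9*, *Adam10*, *Adam15*, and *Timp2*. With the label date as a replicate block, *Adam19* was called higher in R3 against both R2 (adjusted p = 0.0242) and R1 (adjusted p = 0.0402). A gene is called at a limma adjusted p under 0.05 over all 19937 genes. Against R1, 4 of the 8 genes were called, where 13.5% of all genes were called in either direction, 6.49% higher and 7.02% lower. Against R2, *Adam9* and *Adam15* were called lower, 2 of the 8 genes, where 9.55% of all genes were called, 4.85% higher and 4.69% lower. None of the 8 was called in R2 against R1, where 0.391% of all genes were called (0.181% lower). In that comparison 2 of them (*Timp2* and *Adam10*) had an unadjusted limma p under 0.05, where many other genes did too. By p they ranked 1322 and 1785 among the 19937 genes. The median log2 fold change of the 8 genes was -0.18 in R3 against R2, where the median of all genes was -0.01. In R3 against R1 it was -0.31 for the 8 genes and -0.02 for all genes, and in R2 against R1 it was -0.20 for the 8 genes and -0.02 for all. These comparisons share arrays, so their counts are not independent of each other. The study's methods name an unpaired t-test, and after adjustment over all genes the methods' t-test called none of the 8 in either R3 comparison, with adjusted p between 0.0525 (*Adam9*) and 0.132 (*Adam15*) for the 4 genes called against R1 by limma.

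**Figure D1:**
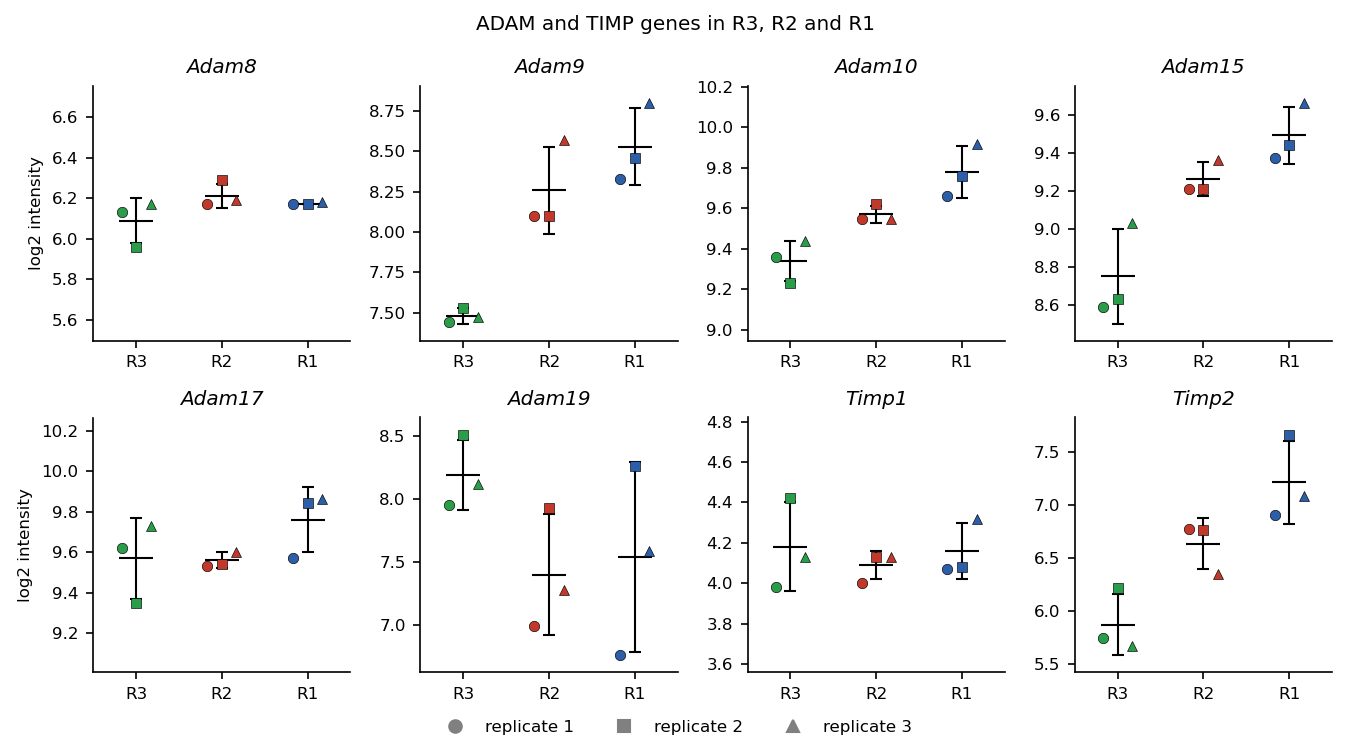
Log2 intensity of each of the 8 genes on the 9 arrays, with R3, R2, and R1 from left to right, symbols for the replicate number, and lines for the mean and SD of 3 arrays. Each panel has its own vertical axis; the R3 arrays of *Adam9* sit between 7.44 and 7.53, below all R2 and R1 arrays, while *Adam19* spreads from 6.76 to 8.26 within R1.

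*Adam9* encodes a widely expressed sheddase that can act on growth factor precursors and on ADAM10 itself. It read 7.44, 7.53, and 7.47 in R3 pre-DCs, 8.10, 8.10, and 8.57 in R2 monocytes, and 8.33, 8.46, and 8.80 in R1 monocytes. All R3 arrays lay below all other arrays, and R2 and R1 overlapped. *Adam9* fell to 48.3% of the R1 intensity in R3 (log2 fold change -1.05, SE 0.15, 95% interval -1.39 to -0.71, limma adjusted p = 0.00158). In R3 it was 58.3% of the R2 intensity (log2 fold change -0.78, SE 0.15, 95% interval -1.12 to -0.43, adjusted p = 0.0109). Between R2 and R1 the log2 difference was -0.27, with an interval from -0.62 to 0.07 (adjusted p = 0.605). Within each date, R3 was below R1 by log2 differences of -0.89, -0.93, and -1.33, and below R2 by -0.66, -0.57, and -1.11. Leaving out the 3 arrays of replicate 1 (adjusted p = 0.0831) or of replicate 2 (0.114) ended the call against R2.

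*Adam10* encodes the protease that makes the outer cut in Notch receptors and in the amyloid precursor protein. Its arrays read 9.36, 9.23, and 9.44 in R3, 9.55, 9.62, and 9.55 in R2, and 9.66, 9.76, and 9.92 in R1. The 3 populations did not overlap, with R3 lowest, R2 next, and R1 highest. *Adam10* fell in R3 to 73.9% of R1, a log2 fold change of -0.44 (SE 0.09, 95% interval -0.63 to -0.24, adjusted p = 0.00844). The neighboring steps did not pass the test: R3 against R2 gave -0.23 (interval -0.42 to -0.04, adjusted p = 0.162) and R2 against R1 gave -0.21 (interval -0.40 to -0.01, adjusted p = 0.433). The call against R1 ended when the arrays of replicate 2 (adjusted p = 0.144) or replicate 3 (0.0534) were left out.

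*Adam15* encodes a sheddase whose human form also binds integrins through its disintegrin domain. It read 8.59, 8.63, and 9.03 in R3, 9.21, 9.21, and 9.36 in R2, and 9.37, 9.44, and 9.66 in R1. R3 lay below R2 and R2 below R1 with no overlap, and replicate 3 was the highest array of each population. *Adam15* fell in R3 to 59.8% of R1 (log2 fold change -0.74, SE 0.13, 95% interval -1.03 to -0.45, adjusted p = 0.00427) and to 70.2% of R2 (log2 fold change -0.51, SE 0.13, 95% interval -0.80 to -0.22, adjusted p = 0.036). R2 was 85.3% of R1, which did not pass the test (adjusted p = 0.603). The call against R2 was the less stable one. It was lost when any of the 3 R2 arrays was left out (adjusted p = 0.0887, 0.0894, and 0.14 without replicates 1, 2, and 3), and without R3 replicate 1 (0.129), R3 replicate 2 (0.121), or R1 replicate 2 (0.0585). Without all arrays of replicate 1 or of replicate 2, the adjusted p against R2 was 0.232 and 0.324, and against R1 it was 0.0604 and 0.107.

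*Timp2* encodes an inhibitor of matrix metalloproteases that also takes part in the activation of MMP2 at the cell surface. It showed the largest log2 difference of the 8 genes, in R3 against R1. Its arrays read 5.74, 6.21, and 5.67 in R3, 6.77, 6.76, and 6.35 in R2, and 6.90, 7.66, and 7.08 in R1. The populations did not overlap, with R3 lowest and R1 highest. *Timp2* fell in R3 to 39.5% of R1 (log2 fold change -1.34, SE 0.22, 95% interval -1.83 to -0.85, adjusted p = 0.00288). The differences within dates were -1.17, -1.44, and -1.41, and without the arrays of replicate 3 the adjusted p was 0.0528. Against R2 the log2 fold change was -0.75 (SE 0.22, 95% interval -1.24 to -0.27) and was not called (adjusted p = 0.0653). With the label date as a replicate block it was called (adjusted p = 0.0144), and it was also called without R1 replicate 2 (0.0305) or R3 replicate 2 (0.0408). R2 against R1 gave -0.59 (interval -1.08 to -0.10, adjusted p = 0.352).

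**Figure D2:**
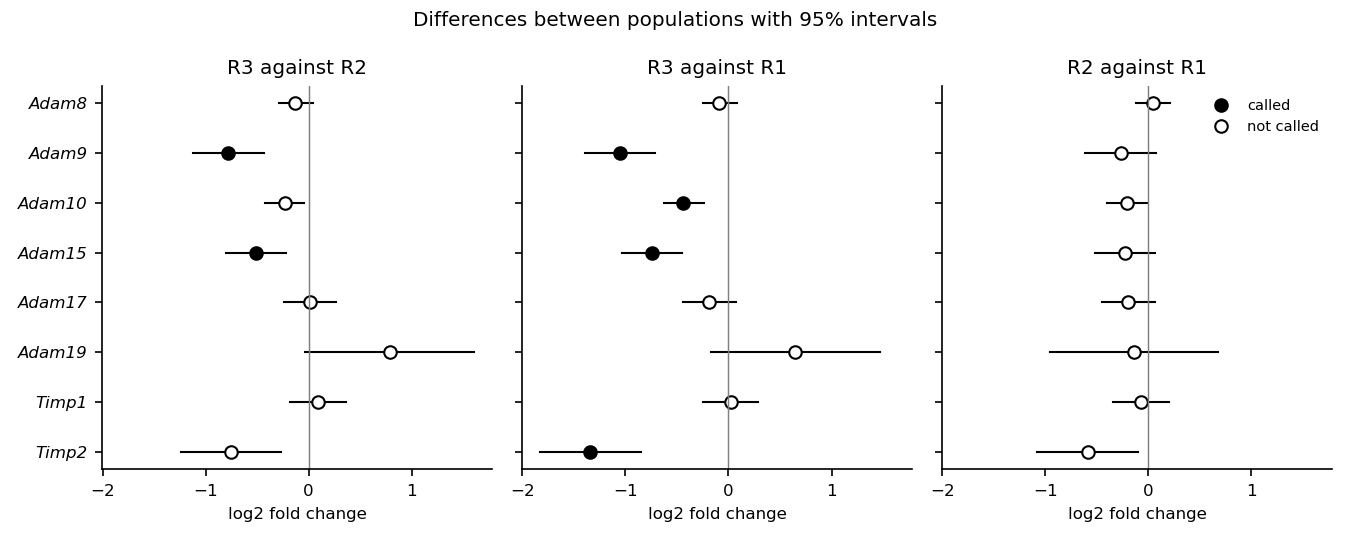
Log2 fold change of each gene (horizontal axis) in each of the 3 pairs of populations, with 95% limma intervals. Filled points passed an adjusted p under 0.05; in R3 against R1 the 4 filled points lie between -1.34 for *Timp2* and -0.44 for *Adam10*, and no filled point lies above 0.

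*Adam17* encodes the TNF-converting enzyme, which also releases TNF receptors and ligands of the EGF receptor. It read 9.62, 9.35, and 9.73 in R3, 9.53, 9.54, and 9.60 in R2, and 9.57, 9.84, and 9.86 in R1. All 3 populations overlapped. The log2 difference was 0.01 in R3 against R2 (95% interval -0.24 to 0.27, adjusted p = 0.982) and -0.19 in R3 against R1 (interval -0.44 to 0.07, adjusted p = 0.379). R2 against R1 gave -0.20 (interval -0.45 to 0.06, adjusted p = 0.611).

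*Adam19*, known for shedding neuregulins, had its highest mean in R3. The arrays read 7.95, 8.51, and 8.12 in R3, 6.99, 7.93, and 7.28 in R2, and 6.76, 8.26, and 7.59 in R1. All R3 arrays lay above all R2 arrays, the nearest at 7.95 in R3 and 7.93 in R2, while R3 and R1 overlapped, and replicate 2 was the highest array of each population and replicate 1 the lowest. The log2 fold change was 0.79 against R2 (SE 0.36, 95% interval -0.03 to 1.61, adjusted p = 0.28) and 0.65 against R1 (SE 0.36, interval -0.17 to 1.47, adjusted p = 0.333). Neither was called. Against R1 the log2 fold change was 0.27 without R1 replicate 1 and 1.02 without R1 replicate 2, and weighting the arrays by quality gave 0.30. The differences within dates were 0.97, 0.58, and 0.83 against R2, and 1.19, 0.24, and 0.53 against R1. With the label date as a replicate block both were called higher, as given above.

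*Adam8*, a leukocyte protease with adhesion molecules among its targets, varied little. It read 6.13, 5.96, and 6.17 in R3, 6.17, 6.29, and 6.19 in R2, and 6.17, 6.17, and 6.18 in R1. R3 lay just below the other populations, by less than the printed decimals at its nearest array, and the log2 differences of -0.13 against R2 (adjusted p = 0.42) and -0.09 against R1 (adjusted p = 0.562) were not called. *Timp1*, which encodes an inhibitor of most matrix metalloproteases and of ADAM10, read 3.98, 4.42, and 4.13 in R3, 4.0, 4.13, and 4.13 in R2, and 4.07, 4.08, and 4.32 in R1. All populations overlapped, and the intervals were -0.18 to 0.36 against R2 and -0.25 to 0.29 against R1. The mean of its probe set, 4.14, lay below the lower quartile of all gene means, 4.85.

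Counting overlap alone, 5 of the 8 genes had all R3 arrays below all R1 arrays, where 12.9% of all genes did (24.5% in either direction), and none had them above. In R3 against R2, 5 genes lay below, where 12.2% of all genes did, and *Adam19* lay above, where 12.6% did (24.8% in either direction). Both counts of 5 include *Adam8*, which barely separated: its highest R3 array had a linear intensity of 71.9 and its lowest R2 and R1 arrays had 72. In R2 against R1, *Adam10*, *Adam15*, and *Timp2* lay below without overlap, where 7.99% of all genes did.

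**Figure D3:**
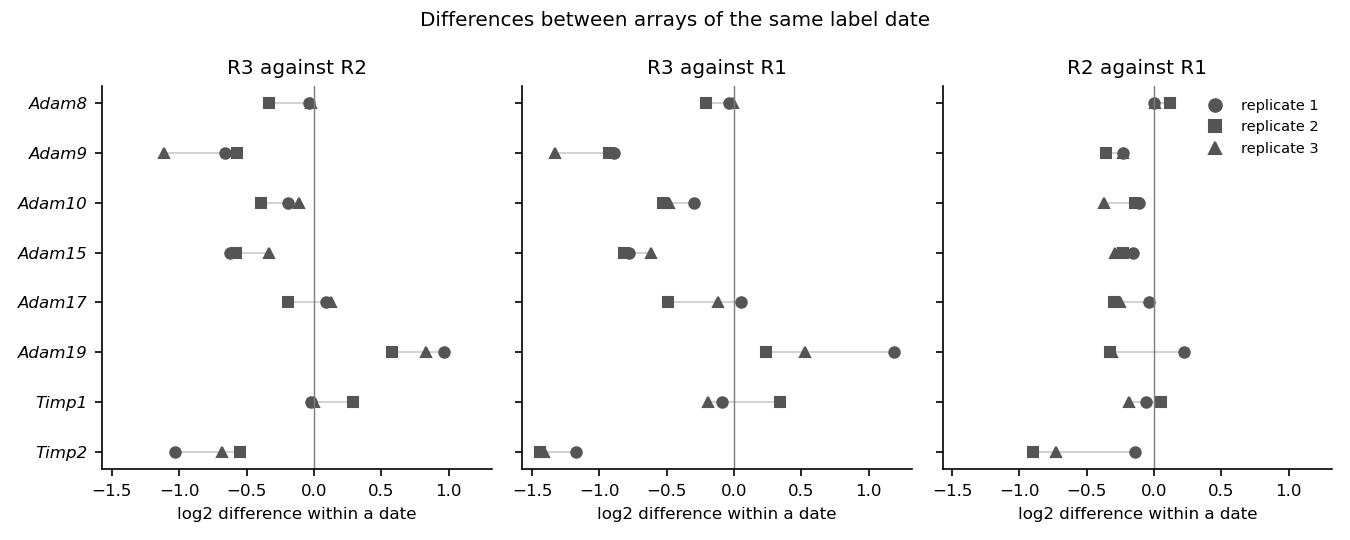
Log2 difference between arrays of the same label date (horizontal axis) for each gene, with 1 symbol per replicate number, in each of the 3 pairs of populations. In R3 against R1, *Adam9*, *Adam10*, *Adam15*, and *Timp2* are below 0 on all 3 dates and *Adam19* is above 0 on all 3, from 0.24 to 1.19.

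Promoters of the genes called lower in R3 are shown because these genes moved in the same direction. RefSeq windows of 300 bases, from 250 before the start of transcription to 50 after it, were matched for 7 of the 8 genes; *Adam9* has no entry. Capitals mark matches on either strand to the GC box (GGGCGG), the CCAAT box (CCAAT), and the core of the site of PU.1 (GAGGAA), a factor of myeloid cells. Coordinates are of GRCm38.p6, and sequences run 5′ to 3′ on the strand of the gene. The windows are chr9:70678732-70679031 on the plus strand for *Adam10*, chr3:89349979-89350278 on the minus strand for *Adam15*, and chr11:118355362-118355661 on the minus strand for *Timp2*.
Adam10: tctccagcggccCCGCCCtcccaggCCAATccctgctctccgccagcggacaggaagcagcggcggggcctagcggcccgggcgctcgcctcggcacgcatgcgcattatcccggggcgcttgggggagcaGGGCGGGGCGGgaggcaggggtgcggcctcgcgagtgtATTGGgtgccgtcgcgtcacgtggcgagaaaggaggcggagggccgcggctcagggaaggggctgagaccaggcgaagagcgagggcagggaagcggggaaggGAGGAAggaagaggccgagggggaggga
Adam15: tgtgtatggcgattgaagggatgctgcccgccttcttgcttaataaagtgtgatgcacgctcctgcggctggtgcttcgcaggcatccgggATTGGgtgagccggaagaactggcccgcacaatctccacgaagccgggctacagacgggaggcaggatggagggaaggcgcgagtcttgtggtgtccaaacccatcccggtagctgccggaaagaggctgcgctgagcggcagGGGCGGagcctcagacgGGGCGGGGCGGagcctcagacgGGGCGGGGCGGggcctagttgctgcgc
Timp2: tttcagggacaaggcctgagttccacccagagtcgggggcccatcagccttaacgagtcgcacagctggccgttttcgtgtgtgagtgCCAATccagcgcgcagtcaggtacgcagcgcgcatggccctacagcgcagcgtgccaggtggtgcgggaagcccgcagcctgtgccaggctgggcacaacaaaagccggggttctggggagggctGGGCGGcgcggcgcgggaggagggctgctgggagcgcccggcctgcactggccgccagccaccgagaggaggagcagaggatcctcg
The *Adam10* window held 3 GC boxes, 2 CCAAT boxes, and 1 PU.1 core. *Adam15* held 5 GC boxes, 4 of them in overlapping pairs, and 1 CCAAT box, and *Timp2* held 1 GC box and 1 CCAAT box. Windows of the genes not called, whose sequences are not shown, held such matches too. *Adam8* held 1 GC box and 2 CCAAT boxes, *Timp1* held 1 of each, and *Adam17* held 1 GC box. For *Adam19*, 1 window held a CCAAT box and a PU.1 core, another held a GC box, and the last held no match. Of 32851 promoter windows of this length, 35.7% held a GC box, 37.4% a CCAAT box, and 28.3% a PU.1 core. The matches describe letters only.

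The genes with the patterns nearest to the called genes were found by the root mean square difference over the 9 arrays, with each gene centered on its own mean. Nearest to *Adam9* were *Pigf* (0.084 on the log2 scale), *Renbp* (0.122), and *Sephs2* (0.126). Nearest to *Adam10* were *Man2b2* (0.046), *Lsg1* (0.054), and *Immt* (0.054). *Numb* (0.06), *Crat* (0.063), and *Lsm10* (0.069) were nearest to *Adam15*. For *Timp2* the nearest genes lay farther off: *Dusp6* (0.161), *Ypel2* (0.17), and *Prkcb* (0.176). *Dusp6*, which encodes a phosphatase of ERK, had log2 fold changes of -0.58 in R3 against R2 and -1.29 in R3 against R1, beside -0.75 and -1.34 for *Timp2*.

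Genes for the carriers that bring sheddases to the surface were called in both directions. Of 17 listed partner and maturation genes, 4 were called higher and 2 lower in R3 than in R2, and 3 higher and 2 lower than in R1. Of all genes, 4.85% were called higher and 4.69% lower in R3 against R2, and 6.49% higher and 7.02% lower in R3 against R1. The median log2 fold change of the 17 genes was 0.02 against R2 and 0.01 against R1, and none was called in R2 against R1. *Rhbdf2* encodes iRhom2, the carrier of ADAM17 in immune cells, and it read 6.70, 6.89, and 6.81 in R3, 8.00, 7.85, and 8.06 in R2, and 8.48, 8.19, and 8.37 in R1. It fell in R3 to 44.4% of R2 (log2 fold change -1.17, SE 0.10, adjusted p = 6.25e-05) and to 34.2% of R1 (log2 fold change -1.55, SE 0.10, adjusted p = 8.16e-06), and kept both calls under all 22 alternatives. *Frmd8*, whose product binds iRhoms and stabilizes them at the surface, went the other way. It read 8.53, 8.51, and 8.88 in R3, 7.46, 7.64, and 7.98 in R2, and 7.92, 7.70, and 7.91 in R1, and rose in R3 by 0.95 on the log2 scale against R2 (SE 0.15, adjusted p = 0.00321) and by 0.80 against R1 (SE 0.15, adjusted p = 0.00619). Without the arrays of replicate 2 its adjusted p was 0.0714 against R2 and 0.104 against R1, and without those of replicate 1 it was 0.0585 against R2.

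The tetraspanins of the C8 group bind ADAM10 and guide it out of the endoplasmic reticulum. Against R2, 4 of the 6 measured were called, *Tspan5* lower and the others higher, where 9.55% of all genes were called in either direction. *Tspan17* read 8.80, 8.46, and 8.75 in R3, 7.39, 7.88, and 7.41 in R2, and 7.66, 8.09, and 7.83 in R1. It rose in R3 by 1.11 against R2 (SE 0.16, adjusted p = 0.00214) and by 0.81 against R1 (SE 0.16, adjusted p = 0.0093), with no overlap. Without the arrays of replicate 1 or replicate 3 its adjusted p was 0.062 and 0.0974 against R2, and 0.131 and 0.141 against R1. *Tspan33* read 6.89, 6.58, and 6.80 in R3, 5.91, 5.98, and 5.98 in R2, and 5.56, 5.92, and 5.51 in R1, and rose by 0.80 against R2 (adjusted p = 0.0025) and 1.10 against R1 (adjusted p = 0.000288). Leaving out the arrays of replicate 1 (0.0739) or replicate 3 (0.0651) ended the call of *Tspan33* against R2. *Tspan14* rose by 0.51 against R2 (SE 0.11, adjusted p = 0.0173) and was not called against R1, at 0.28 (adjusted p = 0.143). Its call against R2 was lost without R2 replicate 1 (0.0762), R2 replicate 2 (0.0574), R3 replicate 3 (0.0623), or all arrays of replicate 1 (0.128) or 2 (0.156). *Tspan5* fell in R3 by 0.53 against R2 (adjusted p = 0.0485) and by 0.57 against R1 (adjusted p = 0.0258). The call of *Tspan5* against R2 held in 6 of 22 alternatives and ended with the replicate block (adjusted p = 0.0719), and that against R1 held in 13. *Furin*, a protease that removes ADAM prodomains, had means of 8.29 in R3, 8.55 in R2, and 8.83 in R1 and was not called (adjusted p = 0.531 in R3 against R2 and 0.0828 in R3 against R1). Against R1, *Furin* was called lower without R1 replicate 1 (adjusted p = 0.0157), with array weights (0.0147), and with dim genes left out (0.0446).

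**Figure D4:**
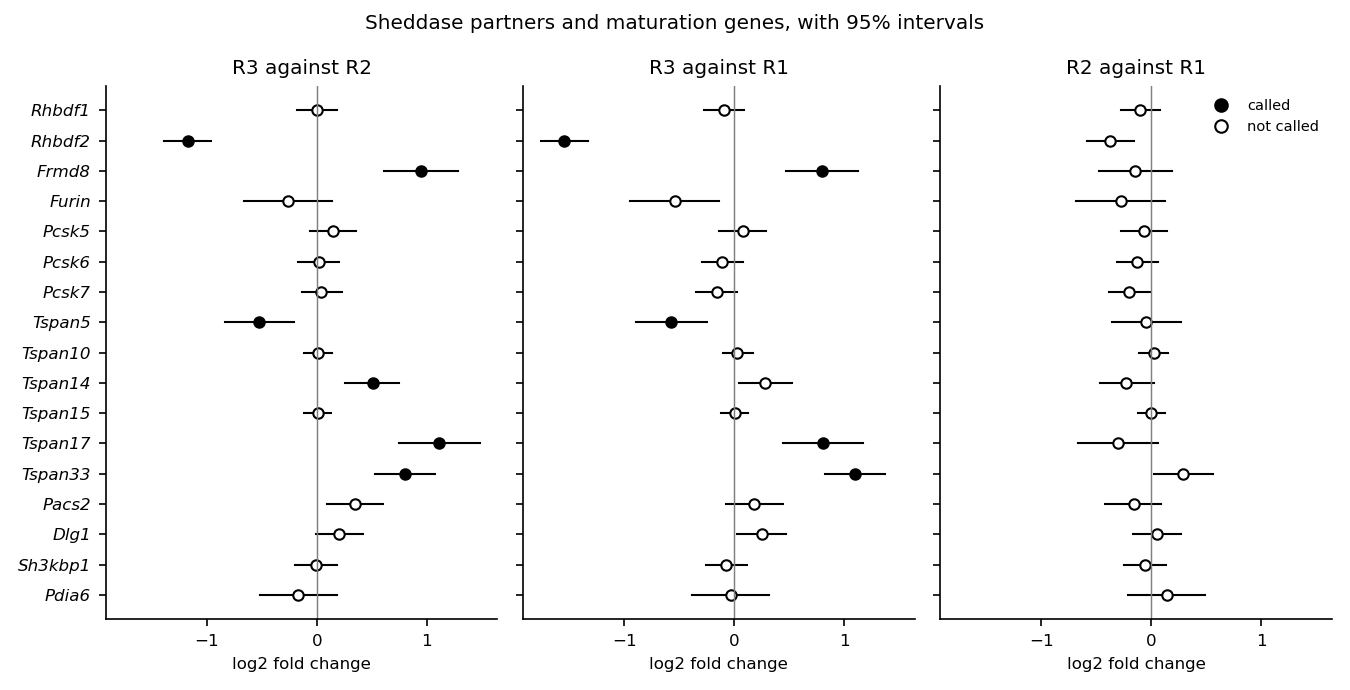
Log2 fold change (horizontal axis) of the 17 partner and maturation genes in each of the 3 pairs of populations, with 95% limma intervals. Filled points passed an adjusted p under 0.05; *Rhbdf2* lies at -1.17 and -1.55 in the R3 comparisons, while *Frmd8*, *Tspan17*, and *Tspan33* lie above 0.

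In the other protease families, counts are to be read beside the 9.55% of all genes called in R3 against R2, the 13.5% in R3 against R1, and the 0.391% in R2 against R1. Of 28 other ADAM genes, 1 was lower in R3 than in R2 and none was called against R1. The gene was *Adam4*, with 5.53, 5.73, and 5.21 in R3, 6.18, 6.41, and 6.20 in R2, and 5.37, 5.58, and 5.40 in R1. It was thus highest in R2, with a log2 fold change of -0.77 in R3 against R2 (SE 0.13, adjusted p = 0.00527) and of 0.81 in R2 against R1 (SE 0.13, adjusted p = 0.0469). The signal was low: its means, 5.49 in R3, 6.26 in R2, and 5.45 in R1, lay near or below the median of all gene means, 6.21. The call in R2 against R1 was lost in 14 of 21 alternatives, among them the omission of any single R2 or R1 array (adjusted p = 0.0794 to 0.205), and that in R3 against R2 without the arrays of replicate 1 (0.0838) or 3 (0.0594). Of 18 ADAMTS genes, *Adamts10* was called higher in R3 than in R1 at 0.40 (adjusted p = 0.0372), a call lost in 12 of 22 alternatives, and none was called against R2.

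Of 19 matrix metalloproteases, *Mmp8* and *Mmp19* were lower in R3 than in both monocyte populations and none was higher. *Mmp8*, the collagenase of neutrophil granules, read 5.44, 5.68, and 6.63 in R3, 10.15, 10.37, and 10.46 in R2, and 10.40, 10.92, and 11.08 in R1. The log2 fold change was -4.41 against R2 (SE 0.29, adjusted p = 1.7e-05) and -4.88 against R1 (SE 0.29, adjusted p = 6.64e-06). Summed neutrophil and granule markers, 11 genes without *Mmp8*, were 2250 to 17000 in R3, 21000 to 27500 in R2, and 14300 to 20900 in R1, and their part in the *Mmp8* difference was not tested. Within that list, the primary granule genes *Mpo*, *Elane*, *Prtn3*, and *Ctsg* were called lower in R3. The secondary granule genes *Ltf*, *Camp*, and *Ngp* had log2 differences of 1.63, 0.86, and 2.07 in R3 against R2, none of them called. Their R3 arrays spread widely, with SDs of 1.99, 2.32, and 2.25. The rest of the list was not called in R3 against R2 either: *S100a8* (-1.42), *S100a9* (-0.83), *Cxcr2* (-0.61), and *Ly6g* (0.26). *Mmp19* read 5.18, 5.34, and 5.20 in R3, 7.36, 7.02, and 6.95 in R2, and 6.89, 7.11, and 7.59 in R1, with log2 fold changes of -1.87 against R2 (SE 0.17, adjusted p = 0.000136) and -1.96 against R1 (SE 0.17, adjusted p = 8.12e-05). Calls of both genes in R3 held under all 22 alternatives.

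Of 7 other inhibitors, *Timp3*, known as the main TIMP of ADAM17, was not called, with means of 5.04 in R3, 5.46 in R2, and 5.18 in R1. *Cst3*, which encodes cystatin C, an inhibitor of cysteine proteases and not of metalloproteases, rose in R3 by 0.27 against R2 (adjusted p = 0.0294) and by 0.30 against R1 (adjusted p = 0.014). Its call against R2 ended with the replicate block (adjusted p = 0.056) and without any single R3 or R2 array (0.0701 to 0.101). Against R1 the call of *Cst3* ended without the arrays of replicate 1 (0.0895), 2 (0.144), or 3 (0.0848). *Ecm1*, a matrix protein that binds MMP9, had a log2 fold change of -1.54 in R3 against R1 (SE 0.41, adjusted p = 0.0353), a call lost in 10 of 22 alternatives. Of 12 genes of γ-secretase and other intramembrane or related proteases, *Psen2*, a catalytic subunit that acts on the stubs shedding leaves behind, fell in R3 by 0.93 against R1 (SE 0.13, adjusted p = 0.00109) and by 0.56 against R2 (adjusted p = 0.0227). *Aph1a*, another subunit, rose by 0.32 against R2 (adjusted p = 0.0281), and the calls of *Psen2* and *Aph1a* against R2 were lost in 8 and 9 of 22 alternatives.

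Genes of surface proteins listed here as shed substrates moved in both directions, and release of each by an ADAM was not checked. Of 51 listed substrates, 10 were called higher and 10 lower in R3 against R2, where 9.55% of all genes were called, with a median of -0.05 where that of all genes was -0.01. In R3 against R1, 9 were called higher and 16 lower, where 13.5% of all genes were called, with a median of -0.12 where that of all genes was -0.02. In R2 against R1, 1 was called, *Itgam* (CD11b), at -0.58 (adjusted p = 0.0459), and that call was lost in 15 of 22 alternatives, the replicate block among them (0.0549). *Flt3*, among the higher genes, and *Csf1r* (CD115), lower in R3 against R1 at -0.51 (adjusted p = 0.00336), were markers of the sort. The call of *Csf1r* ended without the arrays of replicate 1 (0.0501) or replicate 2 (0.0928). *App*, the amyloid precursor protein, read 7.95, 8.30, and 8.34 in R3, 10.37, 10.37, and 10.35 in R2, and 10.46, 10.67, and 10.65 in R1. It fell in R3 by 2.17 against R2 (SE 0.11, adjusted p = 3.61e-06) and fell by 2.40 against R1 (SE 0.11, adjusted p = 1.43e-06). *Sort1*, a sorting receptor, fell by 2.34 against R2 (SE 0.19, adjusted p = 6.06e-05) and fell by 2.48 against R1 (SE 0.19, adjusted p = 3.15e-05), and *Fas*, a death receptor, fell by 1.97 against R2 (SE 0.28, adjusted p = 0.0017) and fell by 2.10 against R1 (SE 0.28, adjusted p = 0.000943).

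On the other side, *Cd163*, a scavenger receptor, read 7.68, 7.99, and 7.82 in R3, 6.30, 6.46, and 6.46 in R2, and 5.75, 6.07, and 5.51 in R1. It rose in R3 by 1.42 against R2 (SE 0.14, adjusted p = 0.000184) and by 2.06 against R1 (SE 0.14, adjusted p = 1.42e-05). *Slamf7*, which encodes another immune receptor, was higher in R3 by 3.13 against R2 (SE 0.41, adjusted p = 0.00102) and by 3.57 against R1 (SE 0.41, adjusted p = 0.000367). Leaving out all arrays of replicate 1 ended its call against R2 (adjusted p = 0.0562). The TNF system is the best known target of ADAM17, and its genes were looked at after their values were seen. *Tnfrsf1b*, which encodes TNF receptor 2, read 8.47, 7.70, and 8.67 in R3, 9.82, 9.89, and 9.79 in R2, and 10.30, 10.30, and 10.17 in R1. It fell in R3 by 1.55 against R2 (SE 0.21, adjusted p = 0.00117) and by 1.97 against R1 (SE 0.21, adjusted p = 0.000217). *Tnf* was called lower than in R1, at -0.49 (SE 0.14, adjusted p = 0.0486), and was not called against R2, at -0.32 (adjusted p = 0.246). The call of *Tnf* was lost in 16 of 22 alternatives, among them the replicate block (0.0686). *Tnfrsf1a*, the gene of the other TNF receptor, had means of 10.46 in R3, 10.48 in R2, and 10.65 in R1 and was not called in either comparison (adjusted p = 0.961 and 0.308).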

How the data were processed

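RNA of 9 sorted samples was amplified, labeled with biotin, hybridized to Affymetrix Mouse Gene arrays, and processed with GenePattern. The deposited table holds linear intensities of 34760 probe sets on each array, and the array medians lie from 58.0 to 64.7. How the authors corrected, summarized, and normalized these intensities was not given in the sources used here, and the number of arrays limits the precision. Of the probe sets, 21640 name 1 gene in the platform annotation, 1321 several, and 11799 none. For each gene the single-gene probe set of highest mean was kept, without a filter. Of all probe sets, 1638 had equal values on all arrays of a population, none of them of the 8 genes.

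A limma model (lmFit and eBayes, version 3.58.1, under R 4.3.3) of the log2 intensities held all 3 populations and left 6 residual degrees of freedom, and the script was tested on simulated data. Intervals are at 95%. P-values were adjusted by Benjamini-Hochberg over all genes. Percentages of intensity are of geometric means.

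The 8 genes and the 7 pathway and 13 marker lists were chosen with earlier results of these data known. Named genes are the 8 genes, called members of each pathway list (at most the 6 of largest change), and the 3 genes nearest to each called gene. Beyond this rule, uncalled genes of known role (*Furin* and *Timp3*), *Itgam*, *Csf1r*, and TNF genes were added after their values were seen. *Areg*, *Adamts2*, and *Mmp15* were not analysed here, and some other listed genes are not reported here.

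Replicate numbers follow the dates in the labels, which tie 1 array of each population together. Deviations from the population means correlated from -0.02 to 0.15 in 9 same-date pairs and from -0.15 to 0.08 in 18 others. What the dates stand for is not stated. The alternatives were a replicate block, centering or quantile normalization, an offset of 16, omission of dim genes, mean probe sets, array weights, the 6 arrays of a comparison, the methods' t-test, and leaving out arrays.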

Additional observations from a re-analysis of the deposited data

How the results depend on the processing

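Between R3 and R2, 2 of the 8 genes were called, 4 with the replicate block (1 higher and 3 lower), 1 with the 6 arrays of the comparison, 0 by the methods' t-test after adjustment, 4 by that test unadjusted, and 0 to 2 when arrays were left out. Between R3 and R1, 4 were called, 5 with the replicate block (1 higher and 4 lower), 0 by the methods' t-test after adjustment, and 2 to 4 when arrays were left out. Between R2 and R1 none was called in 22 alternatives. Among log2 fold changes that were not called, quantile normalization turned that of *Timp1* in R3 against R1 to -0.02 and that of *Adam8* in R2 against R1 to -0.05. Leaving out arrays moved *Timp1* between -0.03 and 0.19 in R3 against R2, -0.14 and 0.13 in R3 against R1, and -0.13 and 0.01 in R2 against R1. It moved *Adam17* in R3 against R2 between -0.07 and 0.12, *Adam19* in R2 against R1 between -0.53 and 0.22, and *Tnfrsf1a* in R3 against R2 between -0.10 and 0.08, and the last was 0.01 with centered arrays and 0 after quantile normalization. With the replicate block, calls changed for *Adam19*, *Timp2*, *Tspan5*, *Cst3*, *Itgam*, and *Tnf* as given above, and no other call of the 8 genes changed. Called genes among all 19937 ranged over the alternatives from 757 to 3460 in R3 against R2, from 658 to 3354 in R3 against R1, and from 0 to 1488 in R2 against R1, beside 1903, 2693, and 78. With the replicate block they numbered 1897 in R3 against R2 and 2749 in R3 against R1. By the methods' t-test they numbered 893 and 658 after adjustment, and 3460 and 3354 unadjusted. Called substrates ranged from 12 to 22 and from 9 to 25 in the R3 comparisons, and called partners from 1 to 6 in both. The methods' t-test after adjustment also ended the calls of *Fas* (0.0709 in R3 against R2 and 0.0877 in R3 against R1), *Tnfrsf1b* (0.0871 and 0.0629), *Frmd8* (0.101 and 0.0827), *Tspan17* (0.072 and 0.11), and *Psen2* (0.119 and 0.0858) in both R3 comparisons. It also ended both calls of *Tspan5* (0.278 and 0.195). In R3 against R1 it ended those of *Slamf7* (0.0705), *Tspan33* (0.0586), *Cst3* (0.0702), *Csf1r* (0.0864), *Ecm1* (0.272), *Adamts10* (0.278), and *Tnf* (0.297). In R3 against R2 it ended those of *Tspan14* (0.0629), *Adam4* (0.115), and *Aph1a* (0.137), and in R2 against R1 those of *Adam4* (0.263) and *Itgam* (0.238). The causes were not tested.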
